A study of Bos taurus with 16 samples.

Results

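The 7 genes described here encode proteins that neutrophils store or carry in their cytoplasm: the calcium-binding proteins S100A8, S100A9 and S100A12, and the granule proteins lactoferrin (LTF), lipocalin 2 (LCN2), peptidoglycan recognition protein 1 (PGLYRP1) and myeloperoxidase (MPO). They were chosen by name, and every probe that carries 1 of these names was used, which gave 16 probes for 7 of the 17435 genes with a symbol on the array. RNA came from the endometrium, the inner layer of the uterine wall, and the donors were 4 fertile cows (Bos taurus) after calving. Each cow gave biopsies of the uterine horns at nominal days 10, 30, 50 and 100 after parturition. The labels place these biopsies at day 9 or 10, day 29 or 30, day 49 or 51, and day 99 or 100, so that each of the 4 time groups holds 1 array from each of the same 4 animals. No treatment is named in the labels, and the breed and age of the cows are not given in the sources used here. Each cow had its own slide, so cow and slide cannot be told apart, while every slide held all 4 days.

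Neutrophils are short-lived white blood cells that enter the uterus in large numbers after calving and take up bacteria and tissue debris. S100A8 and S100A9 form calprotectin, an abundant cytoplasmic complex that binds zinc, manganese and calcium, and S100A12 is a related protein that can be released as an alarm signal. Myeloperoxidase is a mark of the primary granules, lactoferrin and lipocalin 2 are iron-withholding proteins of the secondary granules, and peptidoglycan recognition protein 1 binds bacterial cell walls. Granule protein messages are made mostly while neutrophils mature in the bone marrow, and lactoferrin, lipocalin 2 and the S100 proteins can also be made by epithelial cells.

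A level is the log2 processed signal of a probe minus the percentile 75 of its array, so a difference of 1 is a doubling, and levels of different probes are not set against each other. A probe was tested with limma where it was well above background (the scanner software's detection mark) on at least 4 of the 16 arrays, with terms for day and cow and Benjamini-Hochberg adjustment over 33182 probes. A change is called at an adjusted p under 0.05. No spot was saturated, and between 61.2% and 76.98% of probes on an array were well above background. Of the 16 member probes, 13 were tested, and each of the 7 genes had at least 1 of them. Where a gene had several, its values are those of the probe with the highest mean level, and the other probes are described beside it. Of the tissue markers, all 10 stromal, all 11 smooth muscle and 12 of 15 tested epithelial genes were well above background on all 16 arrays. No set of genes particular to endometrium was examined, so these marks do not by themselves identify the tissue.

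The 3 S100 genes were high at day 10 and lower at each later day on average. Taking days 30, 50 and 100 together, S100A12 fell by 4.37 ± 0.93 (SE, n = 4 cows; 20.6-fold, adjusted p = 0.0261, limma), S100A9 fell by 4.64 ± 1.04 (24.9-fold, adjusted p = 0.0313, limma) and S100A8 fell by 4.71 ± 1.12 (26.2-fold, adjusted p = 0.0377, limma). These were 3 of the 7 genes, while 4.78% of all tested probes changed in that comparison and 3.32% fell. Each of the 3 was lower in 4 of 4 cows. In a bulk biopsy, fewer cells that make a message and less of it in each cell cannot be told apart. The cells that made these messages were not identified.

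The S100A12 and S100A9 probes printed here show how alike and how distinct the messages are that the array separates. Both lie in the coding part for a calcium-binding loop. The capitals mark the bases that are identical when the probes are laid over each other without gaps, 28 of 54 overlapping bases, or 51.9%. On bovine build HGSC Btau_3.1 the S100A12 probe lies at chr3:18500122-18500181 on the plus strand and the S100A9 probe at chr3:18511639-18511698 on the minus strand.
S100A12: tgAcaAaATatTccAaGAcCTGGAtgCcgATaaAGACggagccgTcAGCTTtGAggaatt
S100A9: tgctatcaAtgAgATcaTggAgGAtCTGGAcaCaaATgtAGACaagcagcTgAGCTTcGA

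The genes S100A8, S100A12 and S100A9 are neighbours on chromosome 3, with 0 annotated genes between them in the RefSeq order of assembly ARS-UCD2.0. Their 6 probes together span 30.9 kb, from 18482908 to 18513835 on HGSC Btau_3.1. The S100A8 probe (NM_001113725) and the printed S100A9 probe (NM_001046328) were well above background on 16 of 16 arrays, as were the 3 probes for S100A12 (NM_174651). A further S100A9 probe, designed on an expressed sequence tag in the opposite orientation to the S100A9 probe above, was well above background on 0 of 16 arrays and was not tested.

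S100A12, the alarm protein, had levels of 6.07, 2.08, 0.95 and 5.99 at day 10 in cows 1 to 4. At day 30 they were -0.85, -1.33, -1.54 and 0.02, and at day 50 they were -1.60, -1.62, -1.09 and -1.15. At day 100 they were 3.01, 0.31, 1.09 and -2.35. Cows 1 and 4 were far above cows 2 and 3 at day 10, all 4 cows lay close together at day 50, and at day 100 cow 1 was highest and cow 4 lowest. The day 50 levels all lay below those of day 10, as did 8.18% of all tested probes, and so did the day 30 levels, as did 4.88% of probes, while day 100 overlapped with day 10.

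S100A9, the partner of S100A8 in calprotectin, had levels of 2.61, -2.13, -3.16 and 3.51 at day 10. At day 30 they were -4.24, -5.72, -5.42 and -3.39, at day 50 they were -5.51, -5.48, -5.19 and -4.42, and at day 100 they were -0.90, -3.64, -3.13 and -6.18. Cows 1 and 4 were again high at day 10, and cow 1 was again highest and cow 4 lowest at day 100, and the ranges of day 10 did not overlap with those of days 30 and 50.

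S100A8 had levels of 5.56, 0.04, -1.26 and 5.51 at day 10. At day 30 they were -2.02, -3.60, -3.18 and -1.0, at day 50 they were -2.79, -3.31, -3.01 and -2.83, and at day 100 they were 0.94, -1.24, -0.53 and -4.45. Day 10 and day 50 did not overlap, while the highest value at day 30, in cow 4, lay above the lowest at day 10, in cow 3.

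**Figure D1:**
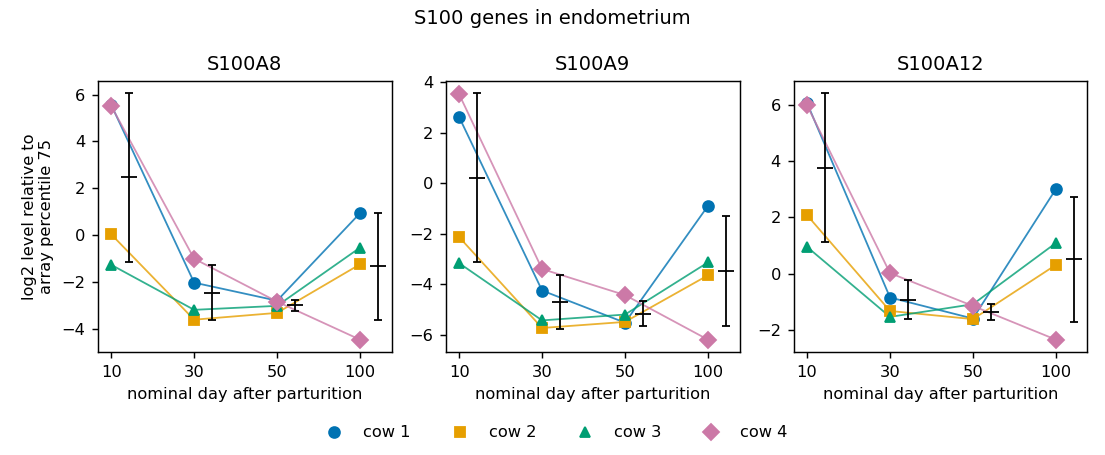
Level of S100A8, S100A9 and S100A12 (log2 relative to the percentile 75 of the array, y axis, scaled separately in each panel) at the 4 nominal days (x axis, evenly spaced), with 1 symbol and line per cow and a black bar for the mean ± SD of 4 cows. All 3 genes are highest at day 10 in cows 1 and 4, lie close together at day 50, and spread again at day 100, where cow 1 is highest and cow 4 lowest; the symbols of cows 1 and 4 nearly coincide at day 10 for S100A8 and S100A12.

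By day, the mean level of S100A12 was 3.77 ± 2.65 (SD, n = 4) at day 10, -0.93 ± 0.69 at day 30, -1.36 ± 0.28 at day 50 and 0.51 ± 2.22 at day 100. The order was day 10, day 100, day 30 and day 50, and it was the same for S100A8 and S100A9. No step between neighbours in this order passed the test for any of the 3 genes. For S100A12 the steps were -3.26 ± 1.14 from day 10 to day 100 (adjusted p = 0.107, limma), 1.44 ± 1.14 for day 100 minus day 30 (adjusted p = 0.599) and -0.44 ± 1.14 from day 30 to day 50 (adjusted p = 0.913).

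The day 50 biopsies gave the only called difference between day 10 and a single later day. S100A12 fell by 5.14 ± 1.14 (SE, n = 4 cows; 95% interval -7.63 to -2.65; 35.2-fold, adjusted p = 0.0495, limma), and all 3 of its probes passed the test, the other two with differences of -5.52 and -5.26 and adjusted p-values of 0.0485 and 0.0471. The main probe and the last of these share a run of 29 bases, so they are not separate readings. It was 1 of 7 genes, against 1.66% of all tested probes that changed between these days and 1.06% that fell. S100A9 and S100A8 had differences as large at day 50, -5.35 ± 1.27 and -5.45 ± 1.37, with adjusted p-values of 0.0616 and 0.0704. The S100A12 call lay at the edge of the threshold: of 20 fits that each left out 1 array or 1 cow, it was kept in 4, those without the day 10 array of cow 3 (adjusted p = 0.0484) and without the day 100 array of cow 1, 2 or 4 (adjusted p = 0.0442, 0.0476 and 0.0183). In the 16 others the difference ran from -4.21 to -6.17 and the adjusted p from 0.0522 to 0.253, and the adjusted p was 0.0568 without the filter on dim probes and 0.073 with the 8 arrays of these 2 days alone.

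At day 30, 0 of the 7 genes were called (limma), against 0.419% of tested probes, and 4 had an unadjusted p under 0.05, against 14% of tested probes. S100A12, S100A9 and S100A8 differed from day 10 by -4.70 ± 1.14, -4.90 ± 1.27 and -4.91 ± 1.37, with adjusted p-values of 0.101, 0.124 and 0.149. At day 100 again 0 of the 7 were called (limma), against 4.61% of tested probes, and 4 had an unadjusted p under 0.05, against 25.8%. Here the S100 differences from day 10 were smaller, -3.26 ± 1.14, -3.67 ± 1.27 and -3.78 ± 1.37 in the same gene order, with adjusted p-values of 0.107, 0.106 and 0.117.

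The cows did not take the same course to day 100. Between day 50 and day 100 the level of S100A8 moved by 3.73, 2.07 and 2.48 in cows 1, 2 and 3 and by -1.62 in cow 4, and that of S100A12 by 4.62, 1.92, 2.18 and -1.21. The fitted differences between these days were 1.67 ± 1.37 for S100A8 and 1.88 ± 1.14 for S100A12, both with an adjusted p of 0.912 (limma). From day 10 to day 100, cow 4 had the largest drop, with differences of -9.96 for S100A8 and -8.35 for S100A12, while cow 3 stood at 0.74 and 0.13. Between the 3 later days, 0 of 7 genes and 0 of 33182 probes were called in each of the 3 comparisons (limma, 0% of probes), with 0 genes but 3093, 4237 and 1041 probes at an unadjusted p under 0.05 for day 50 minus day 30, day 100 minus day 30 and day 100 minus day 50. Without the day 100 array of cow 2, 112 probes but none of the 7 genes were called for day 100 minus day 30.

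How firmly the fall of the S100 genes over all later days stood depended on single arrays and cows. With the day 10 array of cow 1 or of cow 4 left out, the S100A12 difference was -3.86 or -3.44, with an adjusted p of 0.134 or 0.123, and the differences of S100A9 and S100A8 were -4.13 and -4.0 or -3.46 and -3.53, with adjusted p-values of 0.138 to 0.173. Leaving out cow 1, 2, 3 or 4 as a whole gave adjusted p-values for S100A12 of 0.142, 0.0693, 0.0633 and 0.0829, and the other two S100 genes were not called in those fits either. S100A9 was also not called without the day 30 or the day 50 array of cow 1 (adjusted p = 0.0537 and 0.0554). For S100A8 the same held without any of 7 arrays, the day 30 or day 50 array of cow 1, 2 or 3 and the day 50 array of cow 4 (adjusted p from 0.0539 to 0.0689). The direction was lower in all 20 of these fits for all 3 genes.

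LTF, the iron-binding protein of secondary granules and of glandular secretions, was well above background on 16 of 16 arrays with 3 of its 5 probes (NM_180998, chromosome 22). The probe printed here lies in the coding part near the end of the protein, at chr22:54345392-54345451 on the plus strand (HGSC Btau_3.1), and is shown because its target is part of the coding message. It is 1 of the 4 other probes of the gene, and its values followed those of the main probe with a larger difference over the later days (-2.70 ± 0.90).
LTF: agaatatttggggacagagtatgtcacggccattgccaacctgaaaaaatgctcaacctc

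On the LTF probe with the highest mean level, the values at day 10 were 7.08, 4.44, 4.80 and 6.70 in cows 1 to 4. They were 5.51, 3.59, 3.17 and 5.59 at day 30, 3.54, 5.36, 2.50 and 4.26 at day 50, and 6.78, 1.00, 1.94 and 3.14 at day 100. Cows 1 and 4 were again the highest at days 10 and 30, cow 2 was highest at day 50, and at day 100 cow 1 stood apart above the others. The day means were 5.76 ± 1.33 (SD, n = 4), 4.47 ± 1.27, 3.92 ± 1.20 and 3.22 ± 2.53, in the order of the days, and the days overlapped.

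No LTF difference passed the test in the fit of all 16 arrays. The differences from day 10 were -1.29 ± 0.86 at day 30, -1.84 ± 0.86 at day 50 and -2.54 ± 0.86 at day 100, with adjusted p-values of 0.523, 0.279 and 0.0991 (limma). Over the later days together the difference was -1.89 ± 0.70 (adjusted p = 0.133), with 4 of 4 cows lower. The 4 other LTF probes gave differences of -2.70, -2.70, -3.62 and -3.65 over the later days, with adjusted p-values of 0.0653 to 0.102; the probe with the highest mean level had the smallest difference. Those with the largest differences are also those whose levels came close to background, with well above background marks on 12 and 14 of 16 arrays.

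The day 100 biopsy of cow 1 weighed on the LTF result. In this biopsy the mean level of 15 epithelial marker genes was 2.73 above its mean over all arrays, the highest of the 16, that of 11 smooth muscle genes was -3.47, the lowest, and that of 7 red cell genes was 2.56, the highest. Without this array LTF fell by 3.5 at day 100 (adjusted p = 0.0299, limma) and fell by 2.21 over the later days together (adjusted p = 0.0356). In the other 19 of 20 fits that left out 1 array or 1 cow, LTF was called in neither comparison. With the difference of the epithelial and smooth muscle levels as a covariate, LTF fell by 2.89 at day 100 (adjusted p = 0.0429). With this covariate 2758 probes were called at day 100, against 1529 in the main fit. The part of the tissue make-up in the LTF levels was not tested.

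LCN2, which traps the iron carriers of bacteria, was measured by a probe on chromosome 11 that was well above background on all 16 arrays. Its levels at day 10 were 0.01, -2.64, -2.48 and 1.43. They were -2.56, -2.72, -3.17 and -2.31 at day 30, -3.43, -2.80, -3.59 and -2.95 at day 50, and -2.40, -0.79, -3.82 and -3.56 at day 100. Cows 1 and 4 were high at day 10, whereas cow 2 had its highest value at day 100. Only the ranges of day 10 and day 50 did not overlap, and cow 2 differed there by only -0.16.

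LCN2 differed from day 10 by -1.77 ± 0.79 at day 30, -2.27 ± 0.79 at day 50 and -1.72 ± 0.79 at day 100, with adjusted p-values of 0.348, 0.158 and 0.196 (limma). The difference over the later days together was -1.92 ± 0.64 (adjusted p = 0.105), with 3 of 4 cows lower. Cow 2 was the exception, and without it LCN2 fell by 2.74 over the later days (adjusted p = 0.0391) and fell by 2.91 at day 100 (adjusted p = 0.0469). Leaving out only the day 10 or the day 100 array of cow 2 gave differences of -2.74 and -2.18 over the later days (adjusted p = 0.0359 and 0.0378). In 17 of the 20 fits that left out 1 array or 1 cow, LCN2 was not called over the later days. Across these 20 fits the difference ran from -2.74 to -1.11 and the adjusted p (limma) from 0.0359 to 0.388.

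A further LCN2 probe is shown because it reads the other strand. It lies at chr11:102345756-102345815 in minus orientation (HGSC Btau_3.1), opposite to the probe above, and was designed on an expressed sequence tag.
LCN2 opposite strand: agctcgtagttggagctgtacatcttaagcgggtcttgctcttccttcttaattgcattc
It was well above background on 2 of 16 arrays, those of cow 4 at day 10 and at day 50, with levels of -5.90 and -7.10, and was not tested.

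PGLYRP1, the peptidoglycan-binding protein, was near background. Its brighter probe (NM_174573, chromosome 18) was well above background in 4, 2, 0 and 1 of 4 arrays at days 10, 30, 50 and 100, and the other probe on 0 of 16 arrays. The levels at day 10 were -4.51, -5.79, -6.34 and -5.78. At day 30 cows 2 and 3 were above background with -6.33 and -6.43, and at day 100 only cow 1 was, with -4.34. At day 50 no array was above background, and the day 10 mean was at least 2.39-fold higher (adjusted p of the fit 0.247, limma), where the dim arrays were set to the higher of their own signal and the lowest signal called well above background. All 4 cows were lower at day 50 than at day 10, without overlap.

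With 3 of 12 later arrays above background, the fitted PGLYRP1 differences rest mostly on signals that were not. They were -1.57 ± 0.72 and -1.44 ± 0.72 at days 30 and 100, and -1.55 ± 0.58 over the later days (adjusted p = 0.137, limma), with 4 of 4 cows lower. The adjusted p over the later days was 0.0412 without the day 100 array of cow 1, and with the tissue covariate it was 0.0297 at day 50, 0.0337 at day 100 and 0.0167 over the later days; no size is given for these calls because most later arrays give only a bound. In the other 19 of 20 fits that left out 1 array or 1 cow, PGLYRP1 was not called over the later days. With normexp background correction, which treats dim spots differently, the difference over the later days was 0.10 and that at day 100 was 0.59, neither called.

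MPO, the primary granule enzyme that makes hypochlorous acid, was not called in any comparison (limma), and at an unadjusted p under 0.05 it was not called either. Its only probe (NM_001113298, chromosome 19) was well above background on 12 of 16 arrays, 4, 2, 3 and 3 of them at days 10, 30, 50 and 100. The levels at day 10 were -1.64, -6.39, -6.49 and -6.24, with cow 1 far above the others. They were -7.47, -8.72, -5.10 and -6.31 at day 30, -6.31, -6.50, -5.79 and -5.25 at day 50, and -4.93, -7.65, -5.24 and -6.02 at day 100, so that the days overlapped. The difference over the later days was -1.09 ± 0.75 (adjusted p = 0.403, limma), with 2 of 4 cows lower. Without cow 1 it was 0.08, and cow 4, as high as cow 1 for the S100 genes at day 10, had differences of -0.07, 0.99 and 0.21 at days 30, 50 and 100.

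**Figure D2:**
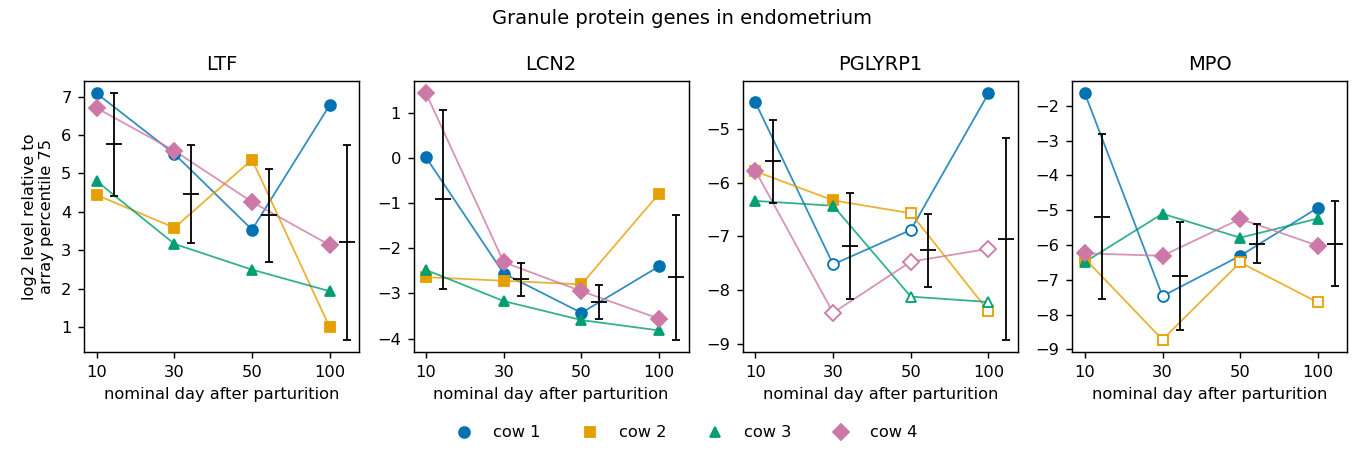
Level of LTF, LCN2, PGLYRP1 and MPO (log2 relative to the percentile 75 of the array, y axis, scaled separately in each panel) at the 4 nominal days (x axis, evenly spaced), with 1 symbol per cow, filled where the probe was well above background and open where it was not, and a black bar for the mean ± SD of 4 cows. LTF and LCN2 are filled on all 16 arrays, PGLYRP1 on 7, none of them at day 50, and MPO on 12; cow 1 stands alone for MPO at day 10 and for LTF and PGLYRP1 at day 100.

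Across the 7 genes, all differences from day 10 were below 0 at each later day and over the later days together. The median difference of the 7 was -1.77, -2.27 and -2.54 at days 30, 50 and 100 and -1.92 over the later days, against -0.01, -0.03, -0.07 and -0.04 over all tested probes. Over the later days together 6 of the 7 genes had an unadjusted p under 0.05, all but MPO, against 24.1% of tested probes. By range, 5 of 7 genes were lower at day 50 than at day 10 without overlap (S100A8, S100A9, S100A12, LCN2 and PGLYRP1), against 8.18% of tested probes, 2 of 7 at day 30 (S100A9 and S100A12), against 4.88%, and 0 of 7 at day 100, against 6.46%. PGLYRP1 was well above background on no day 50 array and passed the probe filter only with the help of its day 10 arrays. The 3 S100 genes kept close to each other, so the genes in these counts are not separate readings. The comparisons with day 10 share the day 10 arrays. In the F test for any difference between the days, 0 of 7 genes were called (limma), against 1.03% of tested probes, and 3 had an unadjusted p under 0.05, against 18.9% of tested probes.

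**Figure D3:**
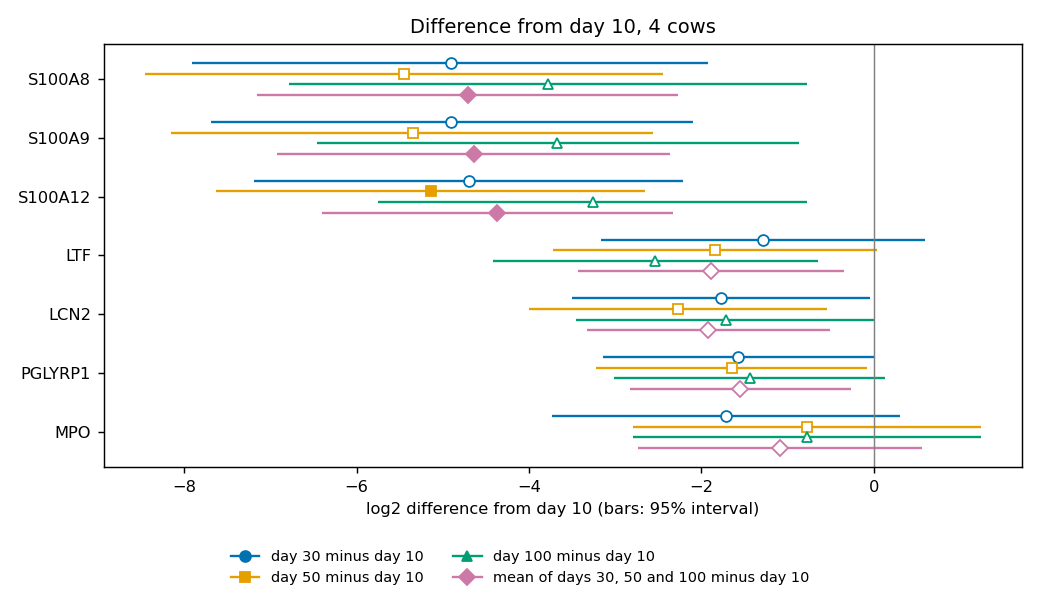
Log2 difference from day 10 of the 7 genes (x axis) at days 30, 50 and 100 and for the mean of these days, with bars for the 95% interval from the limma fit of 16 arrays of 4 cows; a filled symbol has an adjusted p under 0.05. The filled symbols are S100A12 at day 50 and S100A8, S100A9 and S100A12 for the mean of the later days, and the intervals of MPO include 0 in every comparison, while the points of PGLYRP1 rest mostly on later signals not above background, at day 50 on all 4.

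The 3 S100 genes kept close to each other across the 16 arrays. Pearson's r was 0.993 between S100A8 and S100A9, 0.989 between S100A9 and S100A12 and 0.987 between S100A8 and S100A12, and 0.979, 0.978 and 0.967 without the 2 arrays farthest from the median of the first gene. The 16 arrays come from 4 cows and the genes are read on the same arrays, so these values are a description. Between S100A8 and LCN2 r was 0.833 but 0.384 without the 2 farthest arrays, between S100A8 and LTF 0.610 and 0.299, and between S100A8 and MPO 0.533 and 0.229. LTF and LCN2 had an r of 0.495, or 0.718 without the 2 farthest arrays.

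The search covered 12867 other genes with a symbol and a probe well above background on at least 8 arrays. Those whose levels followed the S100 genes most closely by Pearson's r were the same or nearly so. DEFB7, a beta-defensin, came first for S100A12 (r = 0.960), S100A9 (0.947) and S100A8 (0.938), and BHLHE40, a transcription factor, came second with 0.939, 0.924 and 0.925. The third place was held by the chemokine CXCL8 for S100A12 (0.923) and by the cytokine IL1B for S100A9 (0.924) and S100A8 (0.919). LCN2 was followed by LBP, the lipopolysaccharide-binding protein (0.937), SERPINB4 (0.923) and CHI3L1 (0.906). Spearman's rho, which uses ranks only, was lower for each of these pairs. It was 0.876, 0.856 and 0.85 for DEFB7 with S100A12, S100A9 and S100A8, and 0.853, 0.856 and 0.812 for BHLHE40. For CXCL8 with S100A12 rho was 0.741, and for IL1B with S100A9 and S100A8 it was 0.765 and 0.703. With LCN2 rho was 0.85 for LBP, 0.718 for SERPINB4 and 0.844 for CHI3L1. The part of single arrays in these values was not tested.

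The genes nearest to LTF were different ones: the sulfotransferase CHST4 (0.919), the elastase inhibitor PI3 (0.904) and the mucin-type glycosyltransferase GCNT3 (0.884). Among those nearest to PGLYRP1 were NIPAL3 (0.911) and SERPINB6 (0.898), and MPO was followed by PINLYP (0.920), CCDC148 (0.920) and LOC529311 (0.918). PGLYRP1 itself was well above background on 7 of 16 arrays, so its values of r rest mostly on signals that were not. All values of r are Pearson's over 16 arrays.

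Part of the neutrophil markers fell over the same days as the S100 genes. Of 16 marker genes, 14 were on the array under their names and 10 were tested, of which 3 fell over the later days together and 0 rose. These were ITGAM (-2.23 ± 0.36, adjusted p = 0.00891, limma) and ITGB2 (-1.36 ± 0.27, adjusted p = 0.0215), which encode the chains of the adhesion receptor Mac-1, and FCAR, an Fc receptor gene (-2.57 ± 0.50, adjusted p = 0.0194). The median difference of the 10 was -1.34, against -0.04 over all tested probes, of which 3.32% fell. TREM1 stood at 0.00 ± 0.20 and CEACAM8 at 0.45 ± 0.29 over the later days (adjusted p = 0.992 and 0.376). ITGAM was well above background on 2 of 4 arrays at day 10 and 2 of 12 later arrays, and FCAR on 4 of 4 and 4 of 12, so the sizes of their falls rest mostly on later signals not above background. ITGAM passed the probe filter only with the help of its day 10 arrays, so its call and the count of 3 are not independent of that filter. Macrophages use Mac-1 too.

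The neutrophil markers that were on the array but not tested were dim. No probe for CXCR1 or CXCR2, the receptors for CXCL8, was well above background on more than 3 arrays, which for the brightest probe, named CXCR2 on the array and CXCR1 in RefSeq, were the day 10 arrays of cows 1 and 4 and the day 100 array of cow 1. Those of CD177 and MXD1 were so on 0 arrays. The level of the 10 tested markers together, as their mean log2 level relative to all arrays, was 2.33, -0.12, 0.44 and 2.10 at day 10 in cows 1 to 4. It ran from -1.14 to -0.22 at day 30, from -0.89 to 0.02 at day 50 and from -0.78 to 0.38 at day 100. Cows 1 and 4 at day 10 were the highest of the 16, as they were for S100A8, S100A9 and S100A12.

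S100A12 and the marker level had an r of 0.872 over 16 arrays and 0.543 without the 2 arrays farthest from the median marker level. For S100A8 these values were 0.879 and 0.480, for LTF 0.522 and 0.0699, and for MPO 0.717 and 0.749. LTF and the epithelial marker level had an r of 0.315, or 0.00788 without the 2 farthest arrays. MPO and the smooth muscle level had an r of -0.668. The part of neutrophil number in the S100 levels was not tested.

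**Figure D4:**
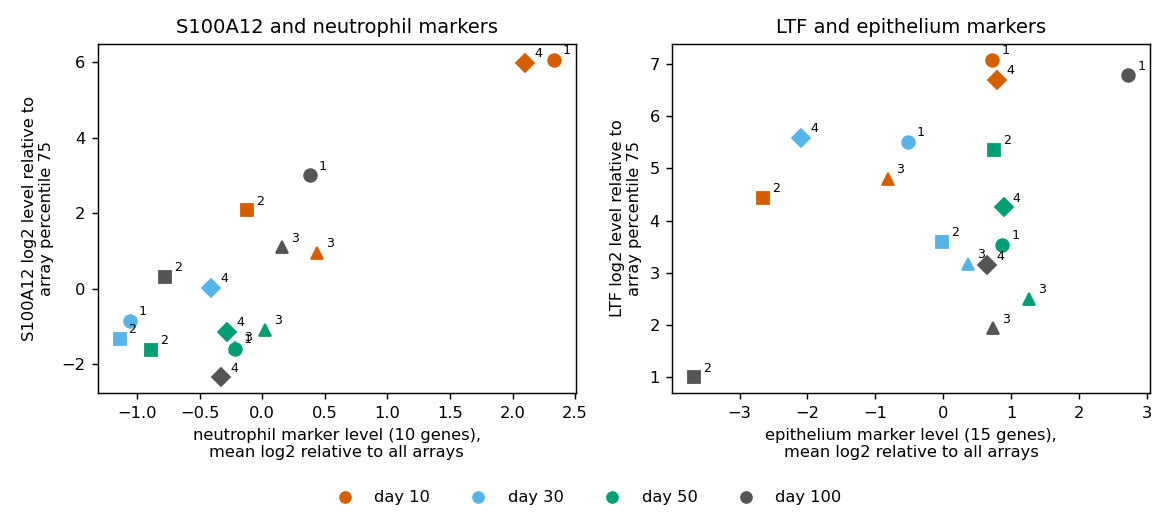
Left, S100A12 level (y axis) against the mean level of 10 neutrophil marker genes (x axis), and right, LTF level against the mean level of 15 epithelial marker genes, all in log2; each point is 1 array, its colour the day and its number and shape the cow. Cows 1 and 4 at day 10 lie alone at the upper right on the left side, with marker levels of 2.33 and 2.10, and on the right side the arrays of cows 1 and 2 at day 100 mark both ends of the epithelial range, at 2.73 and -3.67.

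Macrophage markers fell in larger number: 14 of 15 tested over the later days, against 3.32% of all tested probes, with a median difference of -2.16. Among them were SIGLEC1 (-3.24), CD14 (-3.15), CD163 (-2.89, well above background on 7 of 12 later arrays), FCGR1A (-2.62) and CSF1R (-2.23). The mean level of the 15 markers at day 10 was 1.72, 0.82, 1.45 and 2.48 in cows 1 to 4, so that cows 1 and 4 were the highest here too. The lists for epithelium and smooth muscle had 0 of 15 and 0 of 11 genes called (limma), with median differences of 0.62 and 0.12. These counts lie near the 4.78% called of all tested probes.

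Other granule proteins were changed in part. Of 20 tested, 4 fell over the later days and 0 rose, with a median difference of -0.65. Of all tested probes, 3.32% fell. The vitamin B12 binder TCN1 fell by 7.58 ± 1.14 (adjusted p = 0.00661, limma; 10 of 12 later arrays well above background), OLFM4, a secondary granule protein, fell by 6.95 ± 1.70 (adjusted p = 0.0429; well above background on 4 of 12 later arrays), the gelatinase MMP9 fell by 4.83 ± 0.40 (adjusted p = 0.000158), and CTSC, the protease that activates the serine proteases of granules, fell by 2.06 ± 0.27 (adjusted p = 0.0038). MMP9 was high at day 10 in all cows, with 2.54, 0.33, 0.37 and 0.06, and between -4.84 and -3.15 afterwards.

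TCN1 at day 10 had the split of the S100 genes, with 6.05 and 5.39 in cows 1 and 4 and -0.86 and -0.42 in cows 2 and 3. The elastase ELANE, a primary granule protein like MPO, had a difference of -0.54 ± 0.35 (adjusted p = 0.366), the bactericidal protein BPI one of -1.26 ± 1.14 (adjusted p = 0.530) and lysozyme LYZ one of -0.05 ± 0.16 (adjusted p = 0.888). CTSG, another primary granule protease, was well above background on 1 array and was not tested.

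Among genes of the NADPH oxidase, the enzyme complex behind the oxidative burst, NCF4 (-2.59 ± 0.37) and CYBB (-1.24 ± 0.20) fell over the later days (adjusted p = 0.00535 and 0.00937, limma). Of 14 genes for signals that draw or activate granulocytes, 4 fell, against 3.32% of all tested probes, with a median of -2.25. They were CXCL8 (-4.99 ± 0.89), the growth factor CSF2 (-4.31 ± 0.69), C5AR1, the complement C5a receptor (-2.42 ± 0.55), and the adhesion molecule ICAM1 (-1.94 ± 0.34), with adjusted p = 0.0134, 0.00892, 0.0334 and 0.0122 (limma). Of 8 granulocyte transcription factors SPI1 fell by 2.16 ± 0.28 and CEBPE, which drives secondary granule genes, fell by 2.73 ± 0.60 (adjusted p = 0.00367 and 0.0297, limma). SPI1 is also among the macrophage markers that fell, so it is the same reading counted in both lists. CSF2 was well above background on 4 of 4 arrays at day 10 and 1 of 12 later arrays, and CEBPE on 2 of 4 and 2 of 12. Of the later arrays, C5AR1 was so on 7 and CXCL8 on 11. The sizes for CSF2 and CEBPE therefore rest mostly on signals not above background. Both passed the probe filter only with the help of their day 10 arrays. Their calls, and the counts that include them, are not independent of that filter.

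Of 12 genes for receptors and signalling partners of the S100 proteins and lipocalin 2, 3 were called over the later days. Of all tested probes, 4.78% were called. CD14, the co-receptor of TLR4, fell by 3.15 ± 0.37 and the scavenger receptor CD36 fell by 2.17 ± 0.47 (adjusted p = 0.00216 and 0.0272, limma). The CD14 value is the one already counted among the macrophage markers. AGER, the receptor for advanced glycation end products and for S100A12, rose by 0.94 ± 0.20 (adjusted p = 0.0241, limma). Of 14 other S100 genes tested, 0 were called (limma), a count near that share, with a median difference of -0.21.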

How the data were processed

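Endometrial RNA of 4 cows at 4 days was hybridised to 16 single-colour Agilent arrays. The deposited intensity values were background-subtracted and detrended within each array by Agilent Feature Extraction 11.5.1.1, per the file headers; the submitters' processing notes name version 10.5.1.1. The authors also deposited a log2 value table, which matched the log2 scanner intensities after a shift by each array's percentile 75 and a centring of every probe on its median; r was at least 0.99985 per array; its column medians ran from -0.16 to 0.21.

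Spots marked nonuniform (4 to 125 per array) were dropped, the percentile 75 was subtracted on the log2 scale and spots of a probe were averaged, which left 43653 probes, of which 33182 were tested. limma 3.58.1 in R 4.3.3 was fitted on all 16 arrays with terms for day and cow, after tests on simulated data. The labels state that the biopsies of a cow come from the same individual; deviations from the day means had a median correlation of 0.125 within and -0.0397 between cows. Named genes are the 7 members, at most 6 called genes of each list and comparison, and the 3 genes most like each member; CXCR1, CXCR2, CD177, MXD1, CTSG, ELANE, BPI, LYZ, TREM1, CEACAM8 and the levels of MMP9 and TCN1 were added after their values were seen. Some genes that this rule names are not reported here. The members and lists were chosen with earlier results of these data known. Probe coordinates and sequences are those of the deposited files, and names follow the RefSeq table of ARS-UCD2.0 where an accession matched. The number of arrays limits the precision. Alternatives were another background correction, normalization, probe filter, weighting, choice of arrays, covariate and probe summary.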

Additional observations from a re-analysis of the deposited data

Results flagged for a closer look

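Among the 28 groups of 4 arrays (7 genes at 4 days), 1 held a value far from the others, past the critical value of Dixon's test at the 95% level: MPO at day 10 in cow 1, at -1.64, whose gap to the next value was 0.948 of the range of the group. Chance takes about 1 of 20 groups past that critical value. In the same biopsy the neutrophil marker level was 2.33, the highest of the 16, but cow 4 at day 10, with 2.10, had an MPO level of -6.24.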

How the results depend on the processing

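The alternatives moved the number of the 7 genes called as follows, where a gene counts if any of its tested probes passed. For day 50 minus day 10 it was 1 in the main fit, 2 with normexp background correction, 0 with no filter on dim probes, 4 with array weights, 0 with the arrays of the 2 days alone and 5 with the tissue covariate. For day 100 minus day 10 it was 0, but 1 with array weights and 3 with the tissue covariate, for the mean of the later days 3, but 5 with the tissue covariate, and for the F test 0, but 1 with either of these. Leaving out 1 array or cow gave 0 to 1 genes for day 30, 0 to 3 genes for day 50, 0 to 1 for day 100, 0 to 5 for the mean of the later days and 0 to 1 for the F test. Without the block for cow, which pairs the biopsies of an animal, the same counts of genes were called, with an adjusted p for S100A12 at day 50 of 0.0452.

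The direction turned in a few cases, none of them called. With normexp, PGLYRP1 was 0.59 at day 100 and 0.10 for the mean of the later days, and MPO was 0.26 at day 100. Without 1 array or cow, MPO ran from -1.51 to 0.52 at day 50, from -1.50 to 0.40 at day 100 and from -1.82 to 0.08 for the mean; the values above 0 were those without cow 1 or its day 10 array. The causes were not tested.

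Over all probes, counts called moved from 139 at day 30 to 66 with normexp, 57 without the block, 209 with array weights, 4 with the 8 arrays alone and 237 with the tissue covariate. From 551 at day 50 they moved to 4142, 891 and 1328 with the last 3 of these, from 1529 at day 100 to 44 with the 8 arrays and 2758 with the covariate, and from 1587 for the mean to 3135 with array weights and 3036 with the covariate. From 342 for the F test they moved to 556 with normexp, 1521 with array weights and 686 with the covariate, and day 100 minus day 30 had 16 in place of 0 with normexp. Leaving out 1 array or cow gave 14 to 220, 21 to 970, 73 to 3100, 89 to 2630 and 17 to 1169 for the 3 days, the mean and the F test, and 0 to 1, 0 to 112 and 0 for day 50 minus day 30, day 100 minus day 30 and day 100 minus day 50. Of the probes called, 353 were lower and 198 higher at day 50 (normexp 313 and 303), 1041 lower and 488 higher at day 100 (normexp 548 and 1433, quantile normalization 826 and 637), and 1103 lower and 484 higher for the mean (normexp 583 and 636, quantile normalization 1081 and 741). PGLYRP1 and MPO were limited by signal over background, and 4 cows limit all values.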
